A study of Mus musculus with 2 samples.

Results

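Prostaglandins are lipid signals that the ovulating follicle needs, and 8 genes of their synthesis, export, uptake, breakdown and sensing were examined for binding of FOS, which pairs with JUN proteins to form AP-1. The genes were Ptgs2, Ptges and Ptgis (synthesis), Abcc4 and Slco2a1 (transport), Hpgd (breakdown), and Ptger2 and Ptger4 (receptors). Every FOS peak was taken whose nearest gene or host gene, as the authors assigned them, was 1 of the 8, which gave 4 peaks of the 2374 in the list. For the genes with none, the nearest peak on the chromosome was taken. The peaks come from 1 chromatin immunoprecipitation library made with a FOS antibody from granulosa cells, the somatic cells around the oocyte, of wild-type mice. The mice were 25 days old, had been primed with PMSG to make follicles grow, and had received hCG, a stand-in for the luteinizing hormone surge, 3 h before the ovaries were taken. The series holds 1 further library of the same cells, genotype, age and treatment whose label names no antibody, and no values from it were analysed here. There were no replicates and no unstimulated cells, so no value carries an error between animals and no test was made. No read counts were given, so the depth is unknown. A peak list does not measure RNA, so the granulosa label could not be checked against expression markers.

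Prostaglandin synthesis starts when a phospholipase frees arachidonic acid from membranes. PTGS2, the inducible cyclooxygenase, turns it into the precursor PGH2, and terminal synthases make the final products, PTGES making PGE2 and PTGIS making prostacyclin. ABCC4 exports prostaglandins, SLCO2A1 takes them back into cells, and HPGD, the 15-hydroxyprostaglandin dehydrogenase, inactivates them. PGE2 then acts on receptors that include PTGER2 and PTGER4, both of which raise cAMP. In the follicle, the luteinizing hormone surge induces Ptgs2 in granulosa cells, and PGE2 acts on cumulus expansion and follicle rupture.

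The promoter peak of Ptgs2 covers sequence with 2 elements known in this promoter, a C/EBP motif and an E-box that overlaps a cAMP response element (CRE) half-site, so that sequence is shown first. The peak lay at chr1:150099843-150100184 (mm10, the assembly that RefSeq calls GRCm38). The RefSeq promoter table starts Ptgs2 at base 150100031 on the plus strand, and the peak ran from 188 bases before that start to 153 bases after it. The transcription start site (TSS) behind the authors' distance of -111 bp lies further on, at base 150100124, which is 93 bases downstream of the RefSeq start. Both lines below therefore precede the TSS that the authors used. The first line holds the bases of the peak before the RefSeq start, with a GC box (GGGCGG) and the C/EBP motif (TTGCNNAA) in capitals. The second line holds the 30 bases from the RefSeq start onward (chr1:150100031-150100060, plus strand). Its first capitals match the AP-1 motif, TGANTCA, at all but 1 fixed letter. Its second capitals are the CRE half-site (TGACG, here on the minus strand and so read as CGTCA). That half-site runs into the E-box (CACGTG), with which it shares the letters CA. A further AP-1 match with 1 mismatch, TGAAGCA at -56 to -50 from the RefSeq start, is left in lower case in the first line. Such matches are common: with 1 mismatch allowed, the motif was in 69.4% of all RefSeq promoter windows.
Ptgs2 before the RefSeq start: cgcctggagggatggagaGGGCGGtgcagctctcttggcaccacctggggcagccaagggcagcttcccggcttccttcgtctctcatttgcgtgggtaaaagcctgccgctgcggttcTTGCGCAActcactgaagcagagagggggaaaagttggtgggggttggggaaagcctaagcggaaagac
Ptgs2 from the RefSeq start: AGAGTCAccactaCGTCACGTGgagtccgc
A line from the promoter of Abcc4, the other gene of the 8 with CACGTG in its promoter window, is given for comparison (chr14:118706407-118706436, minus strand, the E-box in capitals). No CRE half-site adjoins the E-box there.
Abcc4: acgggtctcaagCACGTGcggcttccccgc

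Of the 8 genes, 4 had a FOS peak of their own, each gene a single one. Peaks belonged to Ptgs2, Ptgis, Abcc4 and Slco2a1 (4 of 8), by a rule under which 8.68% of the 21887 protein-coding genes had a peak. The 8 genes were chosen with the peaks of these 4 known, so the difference between the shares is a description and not evidence of its own. All 4 peaks lay upstream of the TSS they were assigned to, as did 44.6% of all peaks. A promoter peak was found at 1 of the 8 genes, Ptgs2, against 1.66% of protein-coding genes. The peaks of Ptgis, Abcc4 and Slco2a1 were intergenic, the class of 35.4% of all peaks. None of the 4 lay in an intron of its gene. Among protein-coding genes with a peak, 83.3% also had exactly 1.

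**Figure D1:**
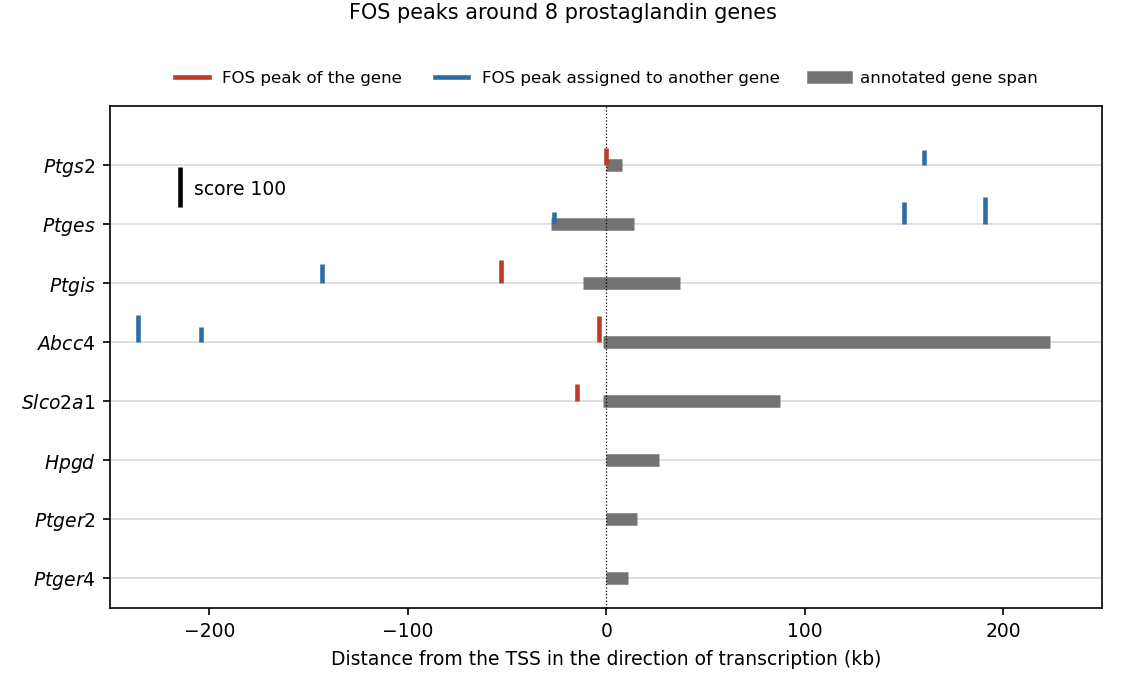
FOS peaks within 250 kb of the TSS of each of the 8 genes, plotted as distance in kb in the direction of transcription, so that upstream is to the left. Bar height is the authors' peak score (scale bar 100), red bars are peaks of the gene, blue bars are peaks assigned to another gene and grey boxes are annotated gene spans. The red bars of Ptgs2, Ptgis, Abcc4 and Slco2a1 stand at or left of the TSS, and Hpgd, Ptger2 and Ptger4 have no peak in view.

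The 4 peaks were of low to middling rank in the list. Each peak carries a score from the authors, on a scale that is not stated, which orders the peaks of the list. It ran from 13 to 2234 with a median of 67. Abcc4 scored 66, Ptgis 58, and Ptgs2 and Slco2a1 each 44, so all 4 lay under the median. At the median or above there was no member gene with a peak, which is near the background share of 4.74% of protein-coding genes. Of all peaks, 47.4% scored lower than the Abcc4 peak, 39.0% lower than that of Ptgis and 20.1% lower than those of Ptgs2 and Slco2a1, which share their score with 86 other peaks. Promoter peaks had a median score of 64, and 254 of the 360 scored higher than the one at Ptgs2. The 4 peaks were 286 to 342 bp wide, and the widest, at Ptgs2, equalled the median width of all peaks.

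**Figure D2:**
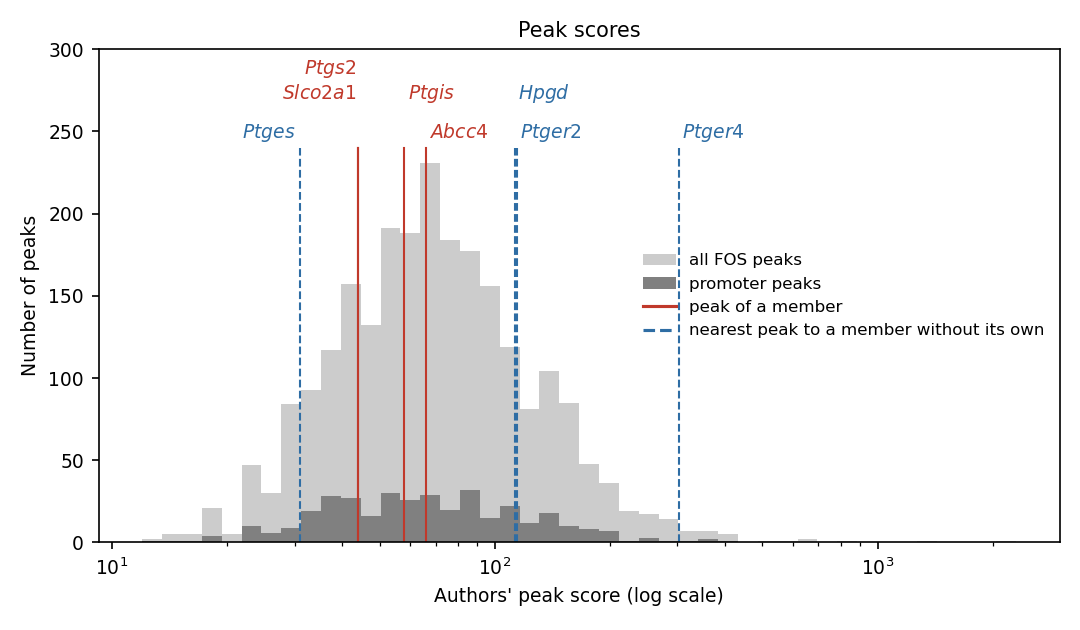
Number of peaks (vertical axis) by the authors' peak score (horizontal axis, log scale) for all 2374 FOS peaks in light grey and for the 360 promoter peaks in dark grey. Solid red lines mark the peaks of Ptgs2 and Slco2a1 (both 44), Ptgis (58) and Abcc4 (66), all below the median of 67; dashed blue lines mark the nearest peaks to Ptges (31), Hpgd (113), Ptger2 (114) and Ptger4 (302).

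Among the synthesis genes, Ptgs2 carried the peak closest to a TSS. Its centre lay 111 bp upstream of the TSS used by the authors and 18 bp upstream of the RefSeq start. The peak also overlapped the first 32 bases of Ptgs2os, a long noncoding RNA gene that starts at base 150099874 and runs the other way, so the peak lies over a divergent pair of starts. The authors assigned it to Ptgs2 alone. The next peak downstream scored 38 and lay 152 kb beyond the end of Ptgs2. That peak was assigned to Pdc, the gene of phosducin, and lay past Ptgs2os2, a second noncoding RNA gene known as lincRNA-Cox2. On the other side, Pla2g4a encodes the cytosolic phospholipase that frees arachidonic acid, and its span ended 139 kb before Ptgs2 began. It had no peak of its own, and the Ptgs2 promoter peak was the nearest to it, at 139 kb.

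Ptges had no peak by the authors' assignment, yet a peak lay inside its RefSeq span. That peak, chr2:30929682-30930017, scored 31, and 7.41% of peaks scored lower. It was called intergenic and assigned to Tor1b, a gene of the torsin family of endoplasmic reticulum proteins, whose TSS lay 23.2 kb away. The distance to the TSS of Ptges in the RefSeq promoter table was 26.6 kb. By these starts Tor1b was the closer by a few kb, and the peak was upstream of both starts. The RefSeq span of Ptges reaches 27.7 kb upstream of that TSS and so takes in the peak. No protein-coding gene lay between the spans of Ptges and Tor1b, which are 21.9 kb apart. Counted by overlap with the annotated span, 2 members had a peak, Ptgs2 and Ptges, against 5.7% of protein-coding genes.

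Ptgis, the prostacyclin synthase gene, had its peak at chr2:167293461-167293746. It lay 53.1 kb upstream of the TSS the authors used and 41.3 kb outside the RefSeq span. The gap between Ptgis and its neighbour B4galt5, which encodes a galactosyltransferase, is 46.3 kb, and the peak lay at the B4galt5 end of it. A further peak of score 48 stood 132 kb from Ptgis and was assigned to B4galt5. The region was comparatively full of peaks, with 8 within 1 Mb of Ptgis, where the median over protein-coding genes was 2 and the upper quartile 4. They included a promoter peak of score 70 at Cebpb, the gene of a C/EBP factor that granulosa cells need for luteinization, 436 kb away.

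Both transporter genes had a peak upstream and outside the gene body. For Abcc4 it lay at chr14:118709759-118710066, 3.69 kb upstream of the TSS and 1.90 kb outside the RefSeq span. The gene covers 225 kb and held no peak in that length. For Slco2a1 the peak lay at chr9:102993748-102994048, 14.6 kb upstream of the TSS. Slco2a1 stood apart in a stretch with few peaks, since its next nearest peak was 804 kb away. Abcc4 had 3 peaks within 500 kb and Slco2a1 had 1, where 41.3% of protein-coding genes had at least 2.

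The breakdown gene and both receptor genes had no peak nearby. For Hpgd the nearest lay 693 kb beyond the gene, scored 113 and was assigned to the uncharacterised LOC102636514. Cep44 and Fbxo8 lie between them. For Ptger2 the nearest lay 488 kb away in intron 3 of 14 of Fermt2, which encodes the integrin regulator kindlin-2, and scored 114. The stretch between holds 7 protein-coding genes, among them Txndc16, Ero1a, Psmc6, Styx and Gnpnat1. For Ptger4 the nearest lay 1.17 Mb away, in intron 1 of 14 of Dab2, the gene of an endocytic adaptor. The Dab2 peak scored 302, and 25 peaks in the whole list scored higher. No protein-coding gene lies between Ptger4 and that peak, because Ptger4 borders a stretch of 1056 kb without one. Ptger4 was the only one of the 8 with no peak within 1 Mb, whereas 79.5% of protein-coding genes had at least 1.

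Set in order, the distance from the gene span to the nearest peak was 0 for Ptgs2 and Ptges, 1.90 kb for Abcc4, 13.0 kb for Slco2a1, 41.3 kb for Ptgis, 488 kb for Ptger2, 693 kb for Hpgd and 1167 kb for Ptger4. Over the 21631 protein-coding genes on chromosomes with a peak, the median was 279 kb and the quartiles were 84.0 kb and 802 kb. The 5 synthesis and transport genes were thus all nearer to a peak than the lower quartile, and Ptger2, Hpgd and Ptger4 were all farther than the median. Of those 5 genes, 4 were chosen with their peaks known, so this contrast too is a description and not evidence of its own. Over 32 other prostaglandin genes the median distance was 278 kb, and the 9 synthesis genes among them lay between 0 and 893 kb from a peak. A peak overlapped 5.76% of the 21631 protein-coding genes. Of the same 21631 genes, 63.9% had a peak closer than Ptger2 had, 71.8% closer than Hpgd had and 82.5% closer than Ptger4 had.

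**Figure D3:**
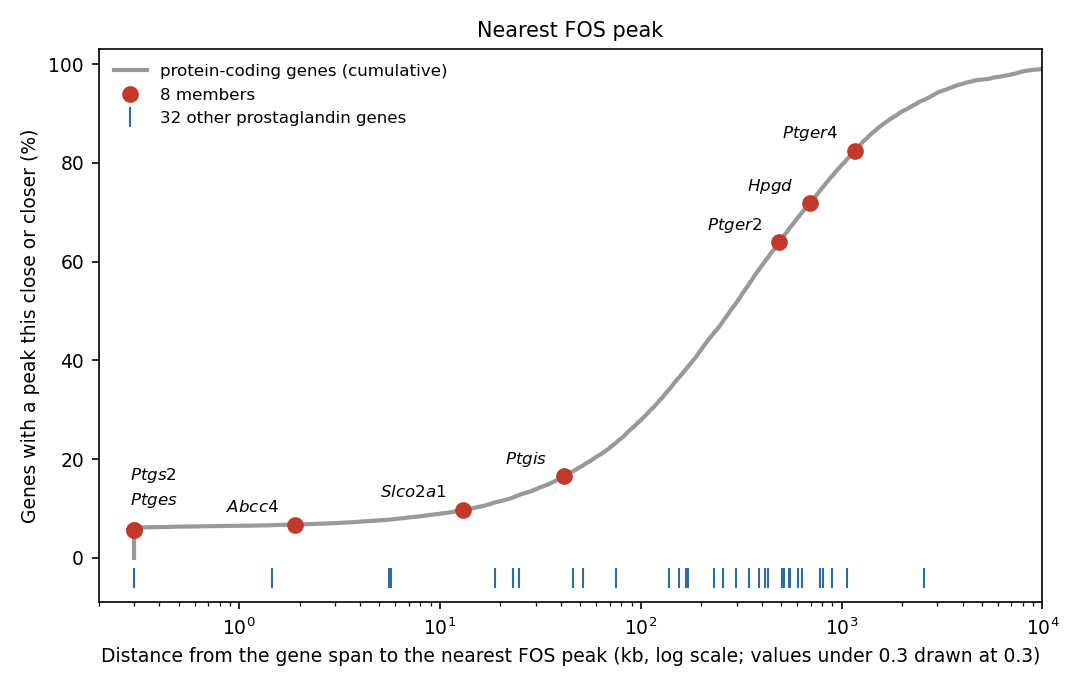
Distance in kb from the gene span to the nearest FOS peak (log scale, values under 0.3 drawn at 0.3) against the percentage of protein-coding genes with a peak at least that close (grey curve, 21631 genes). Red points are the 8 genes and blue ticks are 32 other prostaglandin genes; of the 8, the synthesis and transport genes sit at the lower left, at 41.3 kb or less, and Ptger2, Hpgd and Ptger4 at the upper right, while the blue ticks run up to 2565 kb.

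The other genes of the pathway had few peaks. Of 33 listed genes for arachidonic acid release, synthesis, breakdown, reception and the neighbouring leukotriene and lipoxygenase branches, 32 were matched in the gene table. Of those 32, 2 had a peak (6.25%), near the 8.68% of all protein-coding genes, and with the 8 members the count was 6 of 40 (15.0%). Tbxas1, which encodes thromboxane synthase, held a peak at chr6:38986474-38986741, in intron 4 of 12, that scored 34. Alox5, the gene of the lipoxygenase that starts leukotriene synthesis, was assigned a peak of score 21 at chr6:116407916-116408616. That peak lay 52.9 kb downstream of the Alox5 TSS, in exon 8 of 8 of the neighbouring gene March8, and 1.46 kb outside the span of Alox5. It was 701 bp wide, wider than 98.9% of peaks, and 1.52% of peaks scored lower.

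Among the other genes without a peak of their own, the 4 whose nearest peak was closest are given here. Each of these peaks was assigned to another gene. Ptgds, which encodes a prostaglandin D synthase, was 5.56 kb from a peak of score 18 in exon 1 of 7 of BC029214. Ptges3, which encodes the HSP90 cochaperone p23, was 5.71 kb from a promoter peak of score 85 at Atp5b, a gene of the mitochondrial ATP synthase. Pla2g6, a calcium-independent phospholipase gene, was 18.9 kb from a promoter peak of score 146 at Maff, a small MAF factor that can pair with FOS. Ltc4s, the leukotriene C4 synthase gene, was 23.0 kb from a peak of score 33 assigned to Sqstm1, which encodes the autophagy receptor p62. With any peak within 50 kb of the gene span counted, 5 of the 8 members and 8 of the 32 other genes were reached, against 18.2% of protein-coding genes.

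No prostanoid receptor gene had a FOS peak of its own. Ptger2 and Ptger4 are 2 of 9 such genes, and the count was 0 of 9, which at a share of 8.68% of protein-coding genes is near the background. The nearest to any peak were Ptger1, at 24.7 kb, and Tbxa2r, at 74.9 kb. Both distances were under the lower quartile over protein-coding genes, 84.0 kb. All the other receptor genes were farther than the median of 279 kb. The farthest from any peak was Ptgfr, the receptor of PGF2-alpha, whose nearest peak lay 2565 kb away.

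The letters of the AP-1 motif itself were in no member's promoter window. RefSeq promoter windows of 300 bases, from 250 before the TSS to 49 after it with the TSS counted as 0, were at hand for 7 of the 8 genes, with 2 windows for Abcc4 and none for Ptgis. TGANTCA, searched on both strands like every motif here, was in 0 of the 7, in 7.81% of all 32817 windows and in 29.6% of the 365 windows that share a base with a FOS peak. With 1 mismatch allowed it was in 5 of the 7 and in 69.4% of all windows. The full CRE, TGACGTCA, was in 0 of the 7, in 1.79% of all windows and in 8.22% of those at a peak. At shares of 7.81% and 1.79% of all windows, a count of 0 of 7 is near the background for TGANTCA and for TGACGTCA. The windows are short, and for Ptgs2 the last 104 bases of the peak lie beyond the window. Of the 7 genes, only Ptgs2 has a window that shares a base with a FOS peak. The sequences of the peaks at Ptgis, Abcc4 and Slco2a1 and of the peak inside Ptges were not at hand. Those peaks were not searched, so whether they hold the AP-1 motif is unknown.

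Ptgs2 was the only one of the 7 with the CRE half-site TGACG, which 20.8% of all windows and 47.1% of windows at a peak hold. A count of 1 of 7 is near the share of all windows. That half-site lay 80 to 76 bases before the TSS the authors used, and the E-box CACGTG that overlaps it lay 77 to 72 bases before. CACGTG was in 2 of the 7, Ptgs2 and Abcc4, in 7.15% of all windows and in 17.3% of windows at a peak. The C/EBP motif TTGCNNAA lay 162 to 155 bases before that TSS in Ptgs2 and was also found in Abcc4 and Ptger2, against 10.8% of all windows and 9.32% of those at a peak. GC boxes were in 6 of the 7, in 35.6% of all windows and in 60.8% of those at a peak. Ptger4 had 4 of them, the highest number among the 7. The CCAAT box was in Ptger2 and Ptger4, against 37.4% of all windows and 41.1% of those at a peak. The letters of the TATA box (TATAAA) were found in Slco2a1 and Hpgd, against 13.6% of all windows and 10.1% of those at a peak. From the RefSeq TSS they lay at -29 to -24 in Slco2a1 and at 4 to 9, past the start, in Hpgd. The Ptgs2 window ends before the TSS the authors used, so the bases just before that TSS were not searched. RUNX letters (TGTGGT) were found in Ptgs2 alone, just outside the peak, against 16.8% of all windows. The NR5A motif CAAGGTCA was in 0 of the 7 and in 1.56% of all windows. Both counts are near the background. CANNTG, the general E-box, which takes in CACGTG, was in 6 of the 7 and in 72.3% of all windows.

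**Figure D4:**
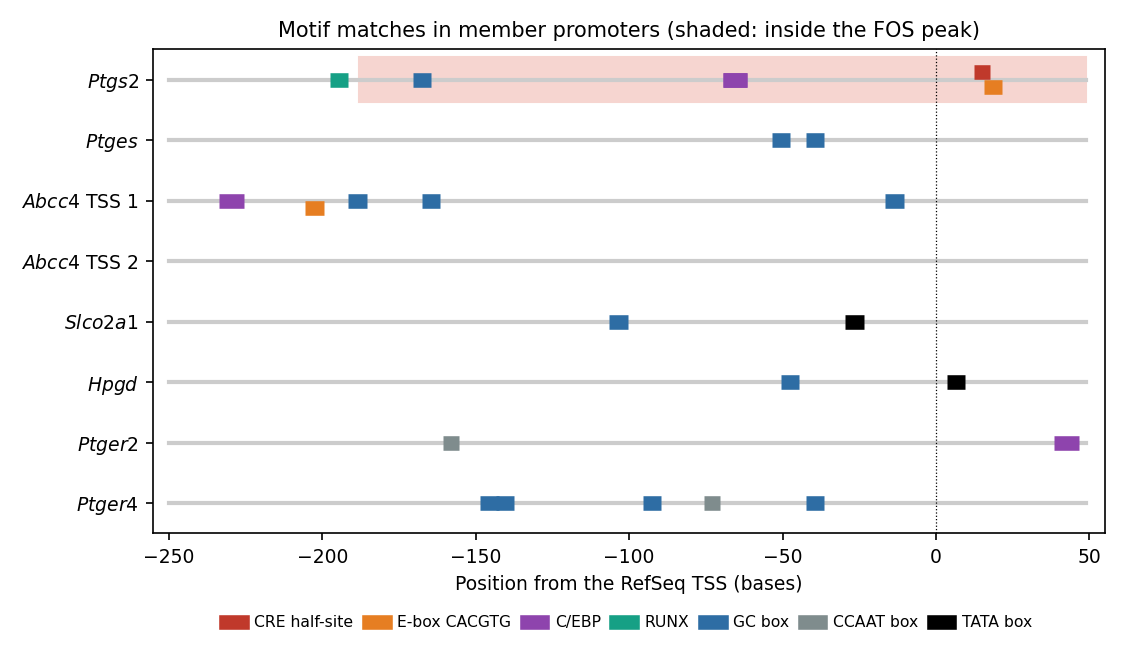
Motif matches on either strand in the RefSeq promoter windows of 7 members, by position in bases from the RefSeq TSS (0). Each coloured block marks matching letters. Matches of the same motif that share bases run together, as do those on both strands at the C/EBP motif of Ptgs2. The pink band marks the part of the Ptgs2 window inside its FOS peak. The CRE half-site and the E-box of Ptgs2 overlap just after the RefSeq TSS, and the C/EBP motif stands before that TSS. The general E-box is left out for clarity.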

How the data were processed

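The authors deposited 1 annotated peak list from the FOS library. Per the file headers, HOMER annotatePeaks was run on a narrowPeak file with genome and gene files. The build was mm10, and the tools named were MACS2 2.2.7.1, BWA, Trim Galore and deepTools 3.5.1, per the submitters' processing notes. The threshold for calling peaks and any control used are not given in the sources used. The peak score is the authors' deposited score for each peak and was used only to rank and filter peaks. The other deposited values are peak starts and ends and the signed distance in bp to the nearest TSS.

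Gene spans came from a RefSeq table of GRCm38.p6, and all 2374 nearest gene names and 1531 of 1534 host genes matched it. Promoter sequences are from RefSeq (GRCm38.p6). Distances run from the edge of the gene span to the edge of the peak. The distance and motif steps were tested on simulated data with known answers. The members, the list of other pathway genes and the motifs were chosen with earlier results of these data known. All members, every other listed gene with a peak and the 4 others with the closest peak are named, with genes that hold, receive or lie before these peaks. Pla2g4a, Ptgfr, Ptger1, Tbxa2r, Ptgs2os, Ptgs2os2 and Cebpb were added after their values were seen. Python 3.11.15 with pandas 2.3.3, numpy 2.4.6 and matplotlib 3.10.9 was used.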

Additional observations from a re-analysis of the deposited data

How the results depend on the processing

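No paired analysis was possible because values from a single library were used and no test was made. Restricted to scores of 67 or more (the median), or of 99 or more (the upper quartile), several counts came to 0. These were the members with a peak, their peaks, their promoter peaks and the other prostaglandin genes with a peak. Of protein-coding genes, 4.74% and 2.54% had a peak at those scores, so 0 of the 8 members is near the background. With peaks within 10 kb of the TSS 2 members and 2 member peaks remained, with a median score of 55, and 0 other genes, against 3.85% of protein-coding genes; within 50 kb the median score was 44 and the other genes 0, against 6.83%. By host gene alone 1 member, 1 peak of score 44 and 1 other gene were counted, against 5.64%. By overlap with the gene span 2 members, 2 peaks (median score 37.5, against 51 by the rule used in the report) and 1 other gene were counted. With any peak within 50 kb or 100 kb of the gene span, 8 and 10 other genes were reached, and the median score at members was 44 under both; at 100 kb 27.6% of protein-coding genes were reached. The median distance of the 4 members with a peak was 7.46 kb from the gene span and 9.14 kb by the deposited distance to the TSS. Of 62 alternative values, 34 were within 1.5 times the reported value or equal to it. Of all annotated genes in place of protein-coding ones, 4.45% had a peak. Allowing 1 mismatch for AP-1, an alternative chosen after seeing the data, or for CRE and NR5A raised the pairs of member and motif to 28 and 26, against 23. The depth is unknown, so a peak too weak to be called cannot be told apart from no binding.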
